A study of Homo sapiens with 10 samples.

Results

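The aryl hydrocarbon receptor, AHR, is a ligand-activated transcription factor. These are the receptor's own gene and 6 genes around it, followed in 22RV1 cells, an established human prostate cancer cell line, by SLAM-seq. The 7 genes are AHR, its DNA-binding partner ARNT, its repressor AHRR, the cytochrome P450 targets CYP1A1, CYP1A2 and CYP1B1, and the target TIPARP. They are 7 of the 31015 genes that could be counted. They were selected on a result of these same libraries, the large rise of newly made CYP1A1 RNA with Endovion. Their Endovion values against control, alone and with THZ531, are therefore given as a description with no test. Other genes of the pathway, chosen with those results known, were tested for Endovion against control.

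The cells fell into 5 groups with 2 replicate libraries each. Control cells were compared with cells that had received, over 4 h, SRPIN340 (20 μM), an inhibitor of the splicing kinase SRPK1, Endovion (50 μM), a compound also known as SCO-101, THZ531, an inhibitor of the transcriptional kinases CDK12 and CDK13, or THZ531 and Endovion together. The dose of THZ531 is 100 nM in the study's methods and 150 nM in the description of the series. All groups, control included, were labelled with 4-thiouridine for 10 min, after which alkylation makes labelled positions read as T-to-C changes. Reads with such a change (T>C reads) stand for nascent RNA, and all reads stand for total RNA. No unlabelled library was analysed here, so the T>C reads that arise without the label were not measured. Nothing in the sources used here says that the replicates came from separate cultures, so the p-values measure only the spread between these libraries, and with bulk RNA a change in fewer cells cannot be told apart from a change per cell.

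In the unstimulated cell AHR is held in the cytoplasm by the chaperone HSP90 together with p23. A ligand, such as dioxin or a product of tryptophan breakdown, releases it into the nucleus, where it pairs with ARNT and binds the dioxin response element. CYP1A1, CYP1A2 and CYP1B1 encode enzymes that oxidise such ligands and many polycyclic hydrocarbons, AHRR competes with AHR for ARNT, and TIPARP is an ADP-ribosyltransferase that limits AHR activity. CYP1A1 is among the most widely used readouts of an active receptor.

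The libraries had 35517462 to 53592904 mapped reads and 1011598 to 1576121 T>C reads on genes, which were 5.04 to 5.70% of the reads on genes. All 9 luminal prostate markers were detected in total RNA, with 1384 to 1837 CPM (counts scaled to the library size with TMM factors) summed over the list in a library. Their sum was 1451 to 1506 CPM with THZ531 and 1384 to 1466 CPM with THZ531 and Endovion, 1685 to 1731 CPM with Endovion and 1801 to 1824 CPM with SRPIN340, against 1812 to 1837 CPM in control. Single markers did not all go with the sum, as FOXA1 had 98.4 and 112 CPM in control and 137 and 245 CPM with THZ531, and KRT8 86.8 and 88.8 CPM against 107 and 141 CPM. The part of these markers in the results was not tested. Of 8 markers of liver, fibroblasts, leukocytes and endothelium, CD3E, COL1A2 and VWF were at 0 in every library. The highest level was that of the liver gene ALB, at 195 to 370 reads. Summed over that list, total RNA was 10.2 to 11.8 CPM in control and 12.96 to 16.1 CPM in the 4 treated groups.

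The dioxin response element is shown here because it is the sequence through which AHR acts on its targets. The letters TNGCGTG were searched on both strands from 1500 bases before to 50 bases after each start site of the RefSeq promoter table, in build hg38, which lists 6 of the 7 genes and not CYP1B1. Of 35116 such windows, 23.9% held at least 1 match and 0.0228%, or 8 windows, held at least 5. The CYP1A1 window held 5. The length of this window was chosen after the shorter one of 250 bases upstream had been searched, where 5.51% of all windows but only AHRR among these genes held a match. The matches of CYP1A1, TIPARP and AHRR are printed 5′ to 3′ on the strand that reads TNGCGTG, with those letters in capitals and 9 bases on either side.
CYP1A1, 1382 bases upstream, chr15:74726898-74726922, plus strand: aagttgtatTTGCGTGcctagctca
CYP1A1, 1058 bases upstream, chr15:74726574-74726598, minus strand: cctccccccTCGCGTGactgcgagc
CYP1A1, 983 bases upstream, chr15:74726499-74726523, plus strand: gcccaggcgTTGCGTGagaaggacc
CYP1A1, 895 bases upstream, chr15:74726411-74726435, plus strand: ccggctagcTTGCGTGcgccggcga
CYP1A1, 500 bases upstream, chr15:74726016-74726040, plus strand: agtcccggcTCGCGTGagaagcgct
TIPARP, 673 bases upstream of 1 of its 3 start sites, chr3:156675979-156676003, plus strand: cgcgcgcgcTTGCGTGtgtacgcgc
AHRR, 29 bases upstream, chr5:321673-321697, plus strand: gcgggcggcTCGCGTGccggggtgg

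ARNT held 2 matches, not printed here, and the windows of AHR and CYP1A2 held none. A match describes the letters and does not show that AHR bound there. CYP1A1 and CYP1A2 are neighbours on chromosome 15 and lie on opposite strands, CYP1A1 at 74719542 to 74725536 on the minus strand and CYP1A2 at 74748845 to 74756607 on the plus strand.

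**Figure D1:**
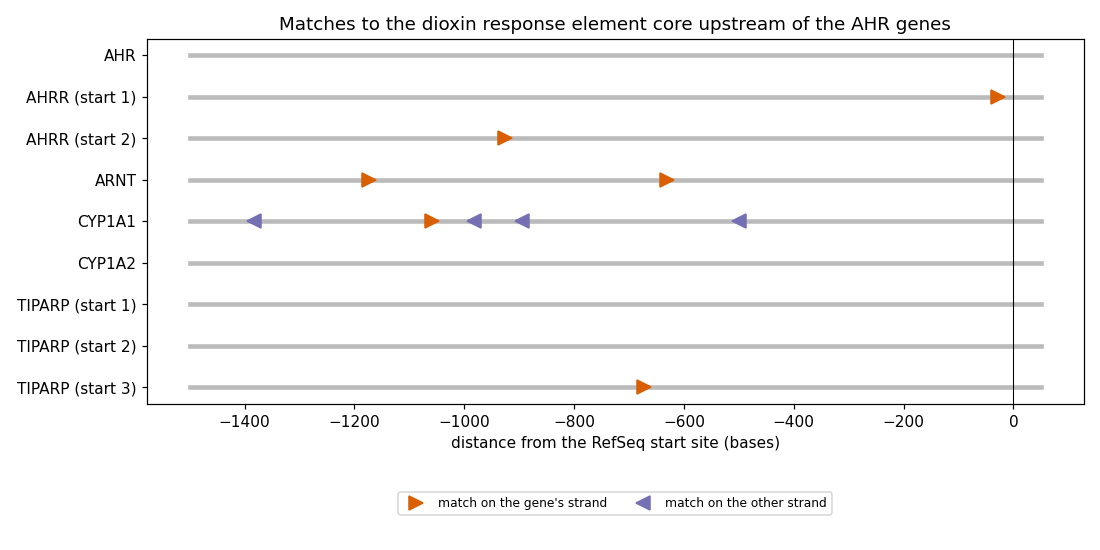
Matches to TNGCGTG (triangles, pointing along the strand that holds them) from 1500 bases upstream to 50 bases downstream of each RefSeq start site (grey bars, distance in bases on the horizontal axis) for the 6 genes in the promoter table. CYP1A1 has 5 matches between 1382 and 500 bases upstream, and AHR and CYP1A2 have none.

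CYP1A1 RNA was far more abundant in every library that received Endovion. Nascent CYP1A1 had 8 and 8 T>C reads in control and 234 and 207 with Endovion. With SRPIN340 there were 1 and 5, with THZ531 19 and 4, and with THZ531 and Endovion together 79 and 117. The 4 libraries with Endovion lay above all 6 without it, and the 6 without it overlapped between THZ531 and control. Total CYP1A1 had 141 and 87 reads in control, 4808 and 4817 with Endovion, 120 and 154 with SRPIN340, 350 and 223 with THZ531 and 3220 and 2968 with the combination. Scaled to the library, total CYP1A1 was 4.34 ± 0.967 CPM in control and 211 ± 38.4 CPM with Endovion (SD, n = 2 each). Against control, the Endovion libraries were 5.02 higher on the log2 scale in nascent RNA (SE 0.40, 32.5-fold) and 5.59 in total RNA (SE 0.18, 48.3-fold).

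The combination of THZ531 and Endovion against THZ531 alone shares no library with the comparison of Endovion and control that led to the choice of genes, and it was tested. The combination libraries are, however, also those of the comparison with control that was given without a test. The genes were chosen with results of all these libraries known, so the test is not independent evidence for Endovion. CYP1A1 rose there by a log2 fold change of 3.34 in nascent RNA (SE 0.39, edgeR's quasi-likelihood test, adjusted p = 9.96e-08) and of 3.57 in total RNA (SE 0.17, adjusted p = 4.20e-09). The 2 libraries of each group did not overlap in either measure. CYP1B1 rose by 2.10 in nascent RNA (SE 0.30, adjusted p = 9.21e-06) and by 1.83 in total RNA (SE 0.22, adjusted p = 0.00702), which are 4.29-fold and 3.57-fold. These were 2 of the 5 genes tested in nascent RNA and 2 of the 7 in total RNA. Over all genes, 0.322% of 9946 and 0.511% of 14690 were called at an adjusted p under 0.05. At an unadjusted p under 0.05 in edgeR there were 2 of 5 and 6 of 7, against 777 of 9946 and 1621 of 14690 over all genes. Without Endovion, nascent CYP1A1 had 1 to 19 T>C reads a library. It passed the low-count filter there only through the libraries with Endovion, so its nascent tests in every comparison rest on them. AHR passed in nascent RNA only through the libraries with THZ531 alone. When all overlapping 3′ UTR intervals of a gene were summed, which counts reads again, the nascent changes were 3.40 (adjusted p = 0.143) for CYP1A1 and 2.08 (adjusted p = 0.184) for CYP1B1. Without THZ531 replicate 2, CYP1B1 was 1.74 higher in total RNA (adjusted p = 0.104).

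CYP1B1 also separated the libraries with Endovion from those without it. It had 71 and 45 T>C reads in control, 50 and 58 with SRPIN340 and 39 and 43 with THZ531. With Endovion it had 163 and 216, and with the combination 143 and 171. Total CYP1B1 was 40.6 ± 2.43 CPM in control, 38.0 ± 2.23 CPM with SRPIN340, 40.9 ± 4.00 CPM with THZ531, 188 ± 69.3 CPM with Endovion and 146 ± 23.3 CPM with the combination (SD, n = 2 each). The first 3 groups overlapped, and so did the last 2. Against control, Endovion libraries were 2.01 higher on the log2 scale in nascent RNA (SE 0.28) and 2.21 in total RNA (SE 0.22).

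**Figure D2:**
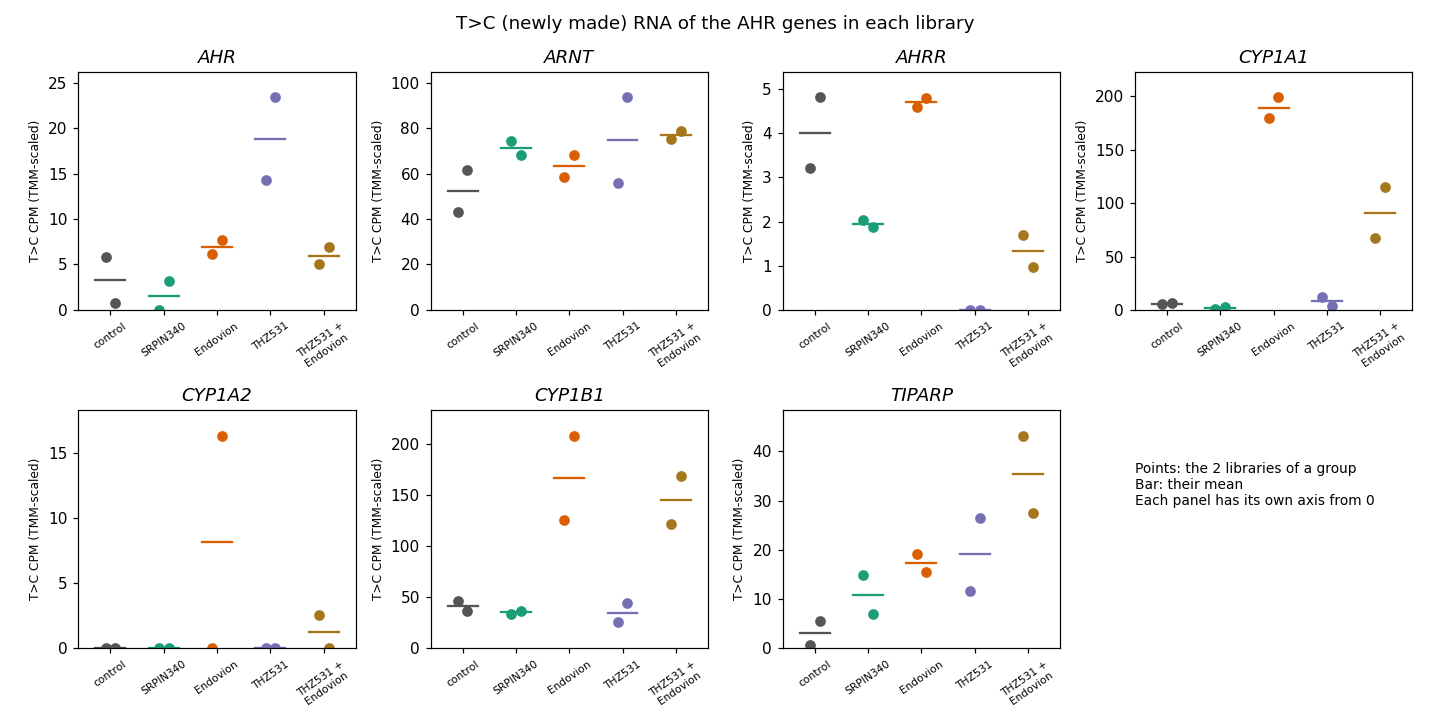
T>C reads as TMM-scaled CPM (vertical axis, from 0 in each panel) for the 7 genes in the 5 groups. Points are the 2 libraries of a group and the bar is their mean. The CYP1A1 and CYP1B1 points of both groups with Endovion lie above those of the 3 groups without it.

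CYP1A2 was barely detected outside the Endovion groups. It had 15 and 9 reads in control, 11 and 15 with SRPIN340, 11 and 9 with THZ531, 51 and 75 with Endovion and 39 and 57 with the combination. Against control, the Endovion libraries were 2.60 higher in total RNA on the log2 scale (SE 0.52). Between the combination and THZ531 alone the log2 fold change was 2.39 (SE 0.53, edgeR adjusted p = 0.0618). The same difference passed with DESeq2 (adjusted p = 0.0123) and in edgeR without a filter on low counts (adjusted p = 0.00316). Under the other settings that kept both libraries of each group the edgeR adjusted p reached 0.143. The log2 fold change ranged from 1.95 to 2.74 with a library left out. T>C reads of CYP1A2 were found only in Endovion replicate 2, with 17 of 75 reads, and in replicate 1 of the combination, with 3 of 39. CYP1A2 did not pass the filter on low counts in nascent RNA. In control, 0 of 15 and 0 of 9 reads were T>C, which, taking 3 reads of the total as the limit for a count of 0, allows shares of up to 20.0% and 33.3%.

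TIPARP was higher than in control with each of the treatments, those without Endovion included. Total TIPARP had 83 and 57 reads in control, 138 and 230 with SRPIN340, 310 and 360 with THZ531, 397 and 382 with Endovion and 869 and 406 with the combination. The means were 2.68 ± 0.397, 6.23 ± 1.52, 15.4 ± 5.57, 17.0 ± 2.62 and 29.7 ± 11.9 CPM in that order (SD, n = 2 each). Every treated library lay above both control libraries, and the THZ531 and Endovion ranges overlapped. THZ531 raised TIPARP by a log2 fold change of 2.50 in total RNA (SE 0.35, edgeR adjusted p = 0.000451) and of 2.62 in nascent RNA (SE 0.70, adjusted p = 0.0110). The nascent change rests on 1 and 7 T>C reads in control against 18 and 26. It was 1.71 without control replicate 1 (adjusted p = 0.180), 1.96 without THZ531 replicate 2 (adjusted p = 0.238), 2.61 when fitted on the libraries of those groups alone (adjusted p = 0.0725) and 2.63 in the plain sum of intervals (adjusted p = 0.0865).

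With SRPIN340, TIPARP had 22 and 11 T>C reads, a log2 fold change of 1.85 (SE 0.72, edgeR adjusted p = 0.276) that ranged from 0.94 to 3.88 when each library was left out in turn. In total RNA it was 1.22 (SE 0.35, adjusted p = 0.0985). This difference passed with DESeq2 (1.19, adjusted p = 0.00646) and without the low-count filter (1.18, adjusted p = 2.73e-05). Under the other settings that kept both libraries of each group the edgeR adjusted p reached 0.158. The value ranged from 0.94 to 1.45 with a library left out. Adding Endovion to THZ531 gave 51 and 28 T>C reads and a log2 fold change of 0.93 (SE 0.55, adjusted p = 0.730, 0.42 to 1.59 with a library left out). In total RNA the value was 0.96 (SE 0.31, adjusted p = 0.239 in edgeR), and 0.46 to 1.38 with a library left out. Its adjusted p was 0.000537 in edgeR without the filter and up to 0.480 under the other settings that kept both libraries of each group. Against control, the Endovion libraries were 2.53 higher in nascent RNA (SE 0.70) and 2.66 in total RNA (SE 0.35).

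**Figure D3:**
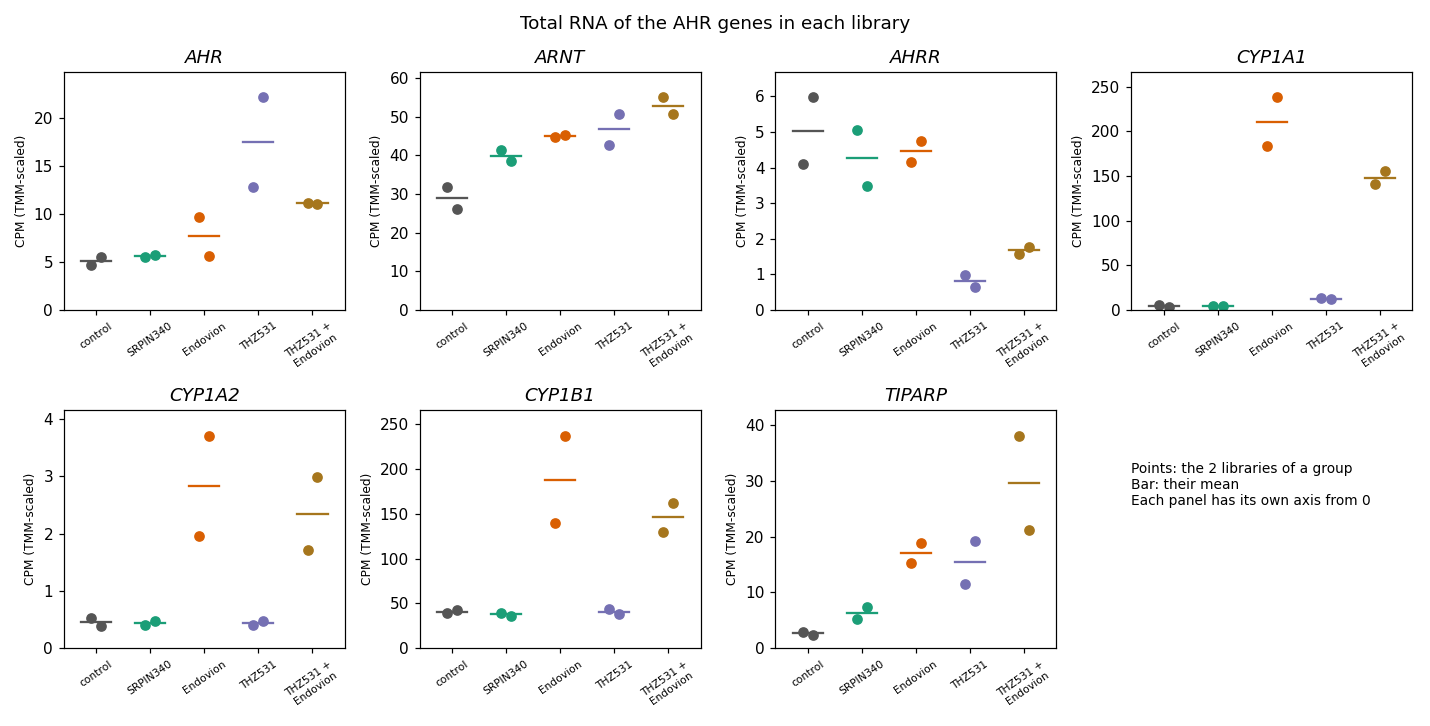
All reads as TMM-scaled CPM (vertical axis, from 0 in each panel) for the 7 genes in the 5 groups. Points are the 2 libraries of a group and the bar is their mean. TIPARP is lowest in the control libraries, and AHRR is lowest in the 2 groups that received THZ531.

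Among the receptor genes, AHR, whose product binds the ligand, was higher with THZ531. Total AHR had 132 and 132 reads in control, 147 and 181 with SRPIN340, 255 and 114 with Endovion, 348 and 414 with THZ531 and 254 and 212 with the combination. THZ531 raised it by a log2 fold change of 1.77 (SE 0.28, edgeR adjusted p = 0.000419). In nascent RNA, 9 and 1 T>C reads in control stood against 22 and 23 with THZ531, a log2 fold change of 2.41 that did not pass (SE 0.92, adjusted p = 0.0985). Against THZ531 alone, the combination was 0.65 lower in total RNA (log2 fold change -0.65, SE 0.27, adjusted p = 0.382) and 1.63 lower in nascent RNA (log2 fold change -1.63, SE 0.89, adjusted p = 0.694). Those comparisons share the THZ531 libraries with the test above. With Endovion alone, AHR was 0.60 higher than control in total RNA (SE 0.29), and 0.14 higher without Endovion replicate 1.

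AHRR went the other way. It had 115 and 142 reads in control, 135 and 110 with SRPIN340, 109 and 96 with Endovion, but 27 and 12 with THZ531 and 36 and 34 with the combination. THZ531 lowered it by a log2 fold change of -2.58 (SE 0.36, edgeR adjusted p = 0.000108), which is 5.97-fold. The combination lay 1.0 above THZ531 alone (SE 0.38, adjusted p = 0.315). T>C reads numbered 5 and 6 in control, 3 and 3 with SRPIN340, 6 and 5 with Endovion and 2 and 1 with the combination. With THZ531 they were 0 of 27 and 0 of 12 reads, which by the same limit of 3 reads allows shares of up to 11.1% and 25.0%. AHRR did not pass the filter on low counts in nascent RNA and was not tested there. The counted interval, chr5:434835-438291 in the 3′ UTR, also belongs on the same strand to the readthrough gene PDCD6-AHRR, so the source of these reads is uncertain.

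ARNT, the partner that AHR shares with other factors of its family, differed by less than 1 on the log2 scale in every comparison. It had 893 and 619 reads in control and 1160 and 947 with THZ531, a log2 fold change of 0.69 (SE 0.14, edgeR adjusted p = 0.00204). With SRPIN340 it had 1106 and 1211 reads, a log2 fold change of 0.46 (SE 0.14, adjusted p = 0.0936), and 0.62 without control replicate 1 (adjusted p = 0.0254). With Endovion it had 1169 and 916 reads and was 0.64 above control (SE 0.14). Nascent ARNT had 67 and 77 T>C reads in control and 71 to 110 in the treated libraries. None of its tested nascent changes passed, and the largest was 0.50 with THZ531 (SE 0.29, adjusted p = 0.334).

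Counted over the 7 genes, THZ531 against control called 5 in total RNA, with AHR, ARNT, CYP1A1 and TIPARP up and AHRR down. That comparison called 30.7% of all genes in total RNA and 7.46% in nascent RNA, where TIPARP alone of the 5 genes tested was called. Total CYP1A1 rose by 1.51 (SE 0.17, edgeR adjusted p = 2.57e-05), while its nascent value was 0.62 (SE 0.54, adjusted p = 0.557) and turned to -0.48 without THZ531 replicate 1. Total CYP1B1 was at 0.01 (SE 0.22) and total CYP1A2 at -0.06 (SE 0.59). SRPIN340 called none of the 7 genes in total RNA, where 1.96% of all genes were called, and none of the 5 in nascent RNA, where 1.04% were called. With edgeR 2 genes in each measure had an unadjusted p under 0.05. Over all genes there were 2835 of 14690 in total RNA and 1036 of 9946 in nascent RNA. DESeq2 called TIPARP in total RNA and none of these genes in nascent RNA. CYP1A1 was 1.51 lower with SRPIN340 in nascent RNA (log2 fold change -1.51, SE 0.70, unadjusted p = 0.0340, adjusted p = 0.420 in edgeR's fit), with a range of -2.91 to -0.85 when each library was left out, and 0.10 higher in total RNA (SE 0.18, adjusted p = 0.807).

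**Figure D4:**
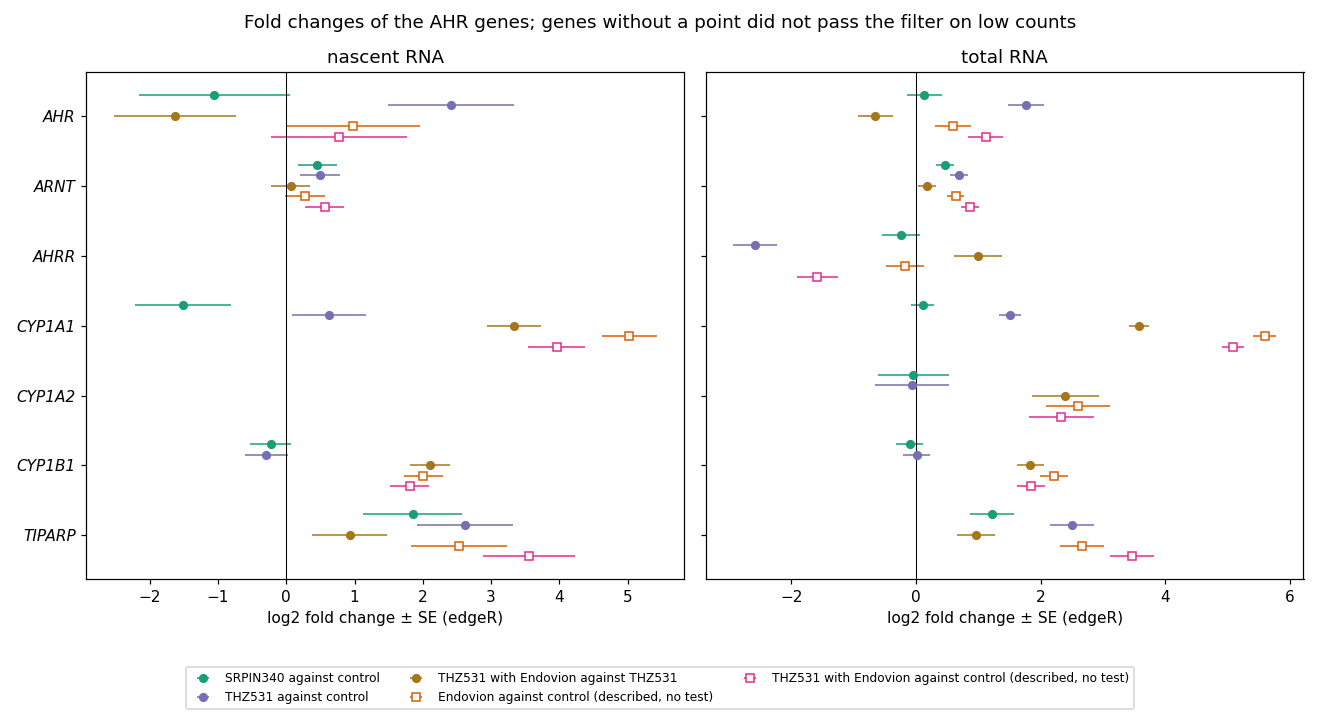
Log2 fold changes with standard errors (horizontal axis) of the 7 genes in nascent RNA (left) and total RNA (right) from the edgeR fit over 10 libraries. Filled circles are tested comparisons and open squares are the comparisons with control that hold Endovion, given without a test. CYP1A1 is the gene farthest to the right wherever Endovion was added, and AHRR is the farthest to the left with THZ531.

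The share of a gene's reads that carried T>C changes relates newly made to total RNA. CYP1A1 in control had 5.67% and 9.20% T>C reads, with exact 95% binomial intervals of 2.48 to 10.9% and 4.05 to 17.3%. With Endovion the shares were 4.87% (4.28 to 5.51%) and 4.30% (3.74 to 4.91%), and with the combination 2.45% (1.95 to 3.05%) and 3.94% (3.27 to 4.71%). The control intervals contain both Endovion shares, while both shares of the combination lie below the interval of control replicate 2 and that of 2.45% also below the interval of control replicate 1. On the log2 scale the CYP1A1 share was -0.49 with Endovion (SE 0.48) and -1.08 with the combination (SE 0.50) relative to control, given without a test. For CYP1B1 the mean share was 5.49 ± 1.44% in control, 4.49 ± 0.0171% with Endovion and 5.17 ± 0.470% with the combination (SD, n = 2 each). Between the combination and THZ531 alone the share on the log2 scale differed by -0.25 for CYP1A1 (SE 0.43, edgeR interaction test, adjusted p = 0.993) and by 0.30 for CYP1B1 (SE 0.28, adjusted p = 0.990). No share of the 5 genes tested passed in edgeR with SRPIN340, THZ531 or the combination against THZ531. Over all 9946 genes that test called 0.181%, 0.342% and 0%, so 0 of 5 is no result about these genes. An unadjusted p under 0.05 was found for 1, 0 and 0 of the 5, against 810, 1003 and 495 over all genes. The intervals cover counting error only.

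**Figure D5:**
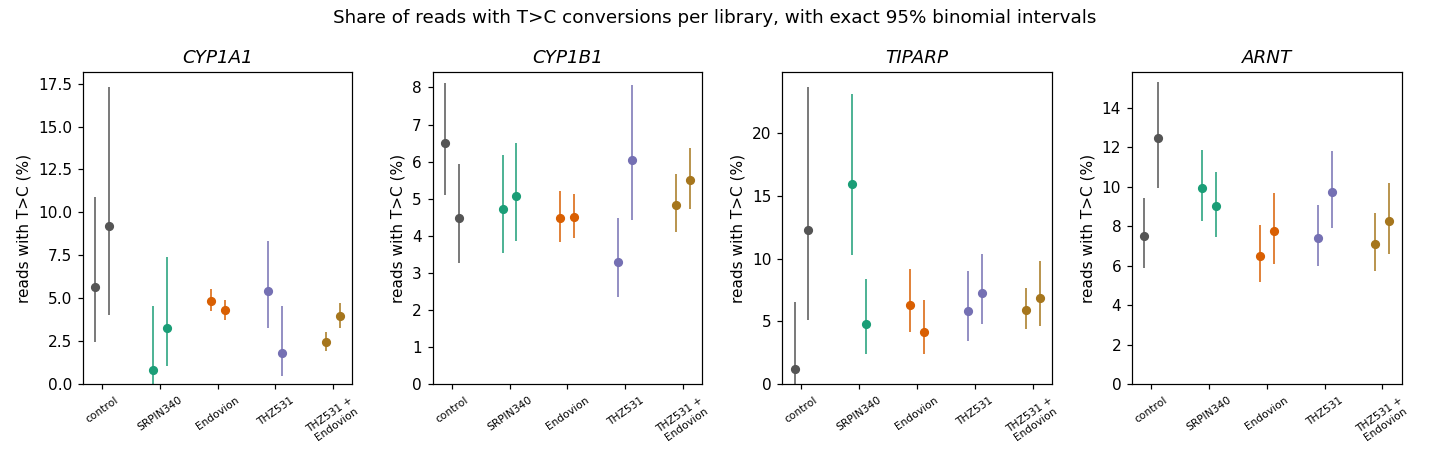
Share of reads with T>C changes (vertical axis, percent) in each library for CYP1A1, CYP1B1, TIPARP and ARNT. Points are libraries and bars are exact 95% binomial intervals, which are widest where reads were few, as for CYP1A1 and TIPARP in control.

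Position within the 3′ UTR was compared for ARNT and CYP1B1, in 1 nested shorter interval each. Other nested intervals of these genes, and those of AHRR, CYP1A1 and TIPARP, were not compared. The nested interval of AHRR held 0 to 5 reads in each library. For ARNT, the 1162 bases next to the coding region, chr1:150810859-150812020 on the minus strand, held 5.71% and 4.85% of the reads of the whole interval in control. With THZ531 they held 12.5% (10.7 to 14.5%) and 8.98% (7.23 to 10.98%). The other 6 libraries lay between 4.13% and 6.51%, the combination at 5.91% and 4.54% included, so that both THZ531 libraries were above all others. For CYP1B1, the 656 bases next to the coding region held 8.84 to 13.9% of the reads, with overlapping groups. These shares were not tested.

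The other genes of the pathway were described from lists. A further 59 genes were taken from 6 lists. These were the chaperone complex, the AHR gene battery, other reported targets, enzymes of tryptophan breakdown, the bHLH-PAS family and the genes of the xenobiotic receptors PXR and CAR. Of the 59, 22 were tested in nascent RNA and 33 in total RNA. Endovion against control called 0 of the 22 in nascent RNA with edgeR, and 0 with DESeq2, where 2.66% of all genes were called. An unadjusted p under 0.05 was found for 2, against 1400 of 9946 over all genes, and the median log2 fold change was 0.08, against -0.01 over all genes tested. In total RNA it called 7 of the 33, 6 up and 1 down, where 11.4% of all genes were called, with a median of 0.14 against 0.02. That count was 2 without control replicate 2, 3 without either Endovion library and 4 in the plain sum of intervals. By list these were 0 of 5 genes of the chaperone complex, 1 of 4 of the battery and 3 of 8 of the other targets. Of the bHLH-PAS family they were 3 of 15, and of the PXR and CAR genes 0 of 1. No enzyme of the tryptophan list passed the low-count filter. The genes that rose were NFE2L2 (1.56), which encodes the oxidative stress factor NRF2, HES1 (1.20), a repressor downstream of Notch, the clock factor BMAL1 (1.05), the coactivator NCOA3 (0.62), the secreted hormone STC2 (0.61) and the cell cycle inhibitor CDKN1B (0.45). HIF1A, the hypoxia factor that also pairs with ARNT, fell by 0.59. SRPIN340, which called none of these in edgeR, gave 1.09, 0.69, 0.95, 0.50, 0.65 and 0.33 in that order. HIF1A was at -0.36 with SRPIN340.

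THZ531 called 8 of the 33 in total RNA, 5 up and 3 down, a smaller share than the 30.7% over all genes, with a median of 0.07 against -0.01 over all genes, and 5 without THZ531 replicate 2. By list, in the same order, these were 1 of 5, 1 of 4, 3 of 8, 3 of 15 and 0 of 1. NFE2L2 (1.18), HES1 (1.34), BMAL1 (1.15), NCOA3 (0.79) and STC2 (0.57) rose, and CDKN1B (-1.20), CLOCK (-0.84) and ARNT2 (-0.57) fell. CDKN1B also fell in nascent RNA, with a log2 fold change of -1.01 (SE 0.19, edgeR adjusted p = 0.000163), as 1 of 22 where 7.46% of all genes were called. The comparisons with control share the control libraries. SRPIN340 called 0 in either measure with edgeR, where 1.04% and 1.96% of all genes were called. At an unadjusted p under 0.05 there were 3 of 22 and 8 of 33, against 1036 of 9946 and 2835 of 14690 over all genes. In total RNA it called 4 with DESeq2, and 6 in edgeR without control replicate 1 or without the low-count filter. The addition of Endovion to THZ531 also called 0 in either measure, where 0.322% and 0.511% of all genes were called, and 1 in total RNA with DESeq2. At an unadjusted p under 0.05 there were 5 of 22 and 5 of 33, against 777 of 9946 and 1621 of 14690 over all genes. In the AHR battery of 9 genes, 6 were not detected in nascent RNA. ALDH3A1, CYP2S1, GSTA1, GSTA2, UGT1A1 and UGT1A6 had no T>C read in any library (UGT1A1 and UGT1A6 share their last exons, so their counts are uncertain). NQO1, a quinone reductase, was 0.31 lower with Endovion in nascent RNA (log2 fold change -0.31, SE 0.21, edgeR adjusted p = 0.537). TDO2, IDO1, IDO2, KMO and IL4I1, enzymes of tryptophan breakdown, also had no T>C read in any library.

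The nascent pattern most like that of CYP1A1 over the 10 libraries was sought among all genes tested for nascent RNA, by Pearson's correlation of log2 CPM. The closest were NLK (0.960), CYP1B1 (0.910), SMU1 (0.899), C19orf12 (0.885) and RNF13 (0.872). CYP1B1 is the other member among them. The 4 libraries with Endovion carry most of the spread in CYP1A1, so these correlations describe how a gene stood with and without Endovion. NLK, a kinase of the Wnt and Notch pathways, had 17 and 18 T>C reads in control and 32 and 31 with Endovion.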

How the data were processed

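Alkylated RNA was sequenced from its 3′ ends, and SLAM-DUNK tables of 3′ UTR intervals in hg38 were deposited for each library. The deposited columns used here are raw counts, of reads and of T>C reads. The deposited conversion rate, a fraction, and the score-like column of read CPM gave no test value. Whether molecular identifiers reduced the counts is not given in the sources used here. The submitters' processing notes name Bowtie2 2.3.4.1, SAMtools 1.6 and DESeq2 1.38.2.

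Intervals were matched to GENCODE v44 transcripts (92910 of 96427 on main chromosomes). Where intervals of a gene overlap, the richest in reads was kept, and the kept intervals were summed to 31015 genes. Both read classes went through edgeR 4.0.16 under R 4.3.3 (TMM, filterByExpr, robust quasi-likelihood fit over all 10 libraries, 5 residual degrees of freedom), with Benjamini-Hochberg adjustment over all genes tested and a threshold of 0.05. The labelled share was the interaction of group with read class, with the library as a block. The procedure was tested on simulated data. DESeq2 1.42.0, a plain sum of intervals, scaling by all reads, no filter, fits on the compared groups alone, the replicate block and leaving out each library were alternatives. Nascent replicate differences of the groups correlated between -0.071 and 0.062, which showed no pairing of libraries by replicate number. Counting noise in the T>C reads could hide such a pairing. The members, gene lists and tests were chosen with earlier results of these data known. Named are the 7 members, every called gene of the lists (at most 5 per list and comparison, by smallest p) and the 5 genes most like CYP1A1 (prior count 2). NQO1 and the genes named as having no T>C read were chosen after their values were seen. The combination of SRPIN340 with THZ531 was not analysed here.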

Additional observations from a re-analysis of the deposited data

Results flagged for a closer look

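CYP1A1 and AHR differed in opposite directions depending on the other compound, with no overlap of scaled values between the groups compared. Each comparison is of 2 libraries against 2, and in neither case was the difference between the effects tested. Total CYP1A1 was higher with THZ531 than in control (log2 fold change 1.51) but lower with THZ531 and Endovion than with Endovion alone (-0.51). AHR was higher with Endovion than in control (0.98 in nascent RNA and 0.60 in total RNA) but lower with THZ531 and Endovion than with THZ531 alone (-1.63 and -0.65). The separation of AHR between Endovion and control was narrow. In total RNA, Endovion replicate 2 had 5.64 CPM and control replicate 2 had 5.55 CPM. In nascent RNA, Endovion replicate 1 had 6.14 CPM and control replicate 1 had 5.79 CPM. When each library was left out in turn, AHR with Endovion against control ranged from 0.25 to 2.96 in nascent RNA and from 0.14 to 0.93 in total RNA, and with THZ531 and Endovion against THZ531 from -1.96 to -1.25 and from -1.01 to -0.21.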

How the results depend on the processing

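Of 581 recomputed values of the 7 genes, 198 with a library left out and 329 under the other settings counted as the same. For tested comparisons this meant the same direction and side of the threshold, and size was not compared. For comparisons without a test it meant a value within the standard error of the main one. For the values that did not count as the same the cause was not tested. CYP1A1 was higher in the combination than with THZ531 in all alternatives run, and its call was lost in 1 of them, the plain sum of intervals in nascent RNA (3.40, adjusted p = 0.143). The plain sum also turned ARNT to -0.084 there, and total CYP1B1 with THZ531 was -0.013 without the filter and -0.016 when fitted on those groups alone. Leaving out libraries in turn moved nascent AHR with SRPIN340 from -5.15 to 0.93, nascent CYP1A1 with THZ531 from -0.48 to 1.10, nascent CYP1B1 with THZ531 from -0.69 to 0.089 and nascent ARNT in the combination against THZ531 from -0.28 to 0.46. In total RNA it moved AHRR (-0.52 to 0.017), CYP1A1 (-0.14 to 0.36) and CYP1A2 (-0.30 to 0.23) with SRPIN340, and CYP1A2 (-0.32 to 0.22) and CYP1B1 (-0.14 to 0.049) with THZ531. CYP1A1 against control ranged from 5.34 to 5.85 with Endovion in total RNA, and with the combination from 4.84 to 5.34 in total and 3.53 to 4.30 in nascent RNA.

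Pathway genes were also counted at the methods' threshold (unadjusted p under 0.05 in edgeR, log2 fold change of at least 1). For SRPIN340, THZ531, Endovion and the combination against THZ531 there were 1, 2, 0 and 4 of 22 in nascent RNA. In total RNA there were 1, 5, 3 and 1 of 33, in the same order. The share over all genes at that threshold, and under the alternatives that follow, was not computed. These counts are therefore not read as a result about the lists. In total RNA the plain sum gave 4 with Endovion, DESeq2 gave 4 with SRPIN340 and 1 with the combination against THZ531, and no filter gave 6 and 2. Leaving out libraries gave 0 to 6 with SRPIN340, 5 to 8 with THZ531, 2 to 6 with Endovion and 0 to 1 with the combination against THZ531. The replicate block changed no call of a member, with CYP1A1 at 3.28 in nascent RNA (adjusted p = 4.73e-08) in the combination against THZ531. Scaling by all reads shifted the median of all genes by -0.128 in nascent RNA with Endovion and turned no member's direction. Depth limits AHR, AHRR, CYP1A2 and TIPARP in nascent RNA, which rest on 0 to 51 T>C reads a library.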
